A study of Mus musculus with 8 samples.

Results

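The IFIT, IFITM and tethering antiviral effectors are a set of 10 mouse genes named by function: Ifit1, Ifit2, Ifit3, Ifit3b, Ifitm1, Ifitm2, Ifitm3, Bst2, Rsad2 and Samhd1. The rows of the deposited count table with these gene names were taken. It holds 8 of the 10 among its 12823 rows, and all 8 were among the 12494 genes tested. Ifit3 and Ifit3b have no row, under these or older symbols, and were not analysed here. Ifit1 and Ifitm1 reached 1 CPM (the read count of a gene scaled to the total of its library) in all 4 libraries of newly generated cells but in only 1 and 0 of the 4 aggressive libraries, so both entered the test through the group in which they were high.

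RNA-seq compared 4 libraries from newly generated AML cells (new AML) with 4 from aggressive AML cells, each made from GFP+ cells sorted out of the bone marrow of C57BL/6 mice. Every library came from mouse bone marrow progenitors transduced with the MLL-AF9 fusion, which drives acute myeloid leukemia and was co-expressed with GFP. The new AML cells came from sublethally irradiated recipients. By the study's account, the aggressive cells came from the same leukemia after 5 serial transplantations in non-irradiated mice. The mice were male and 8 to 12 weeks old. The comparison asked which genes differed between the new and the aggressive cells. Irradiation of the recipients follows the group, so it cannot be told apart from the serial transplantations. The labels call the 4 libraries of a group biological replicates but do not say whether they descend from separate leukemias, so p-values measure the spread between these libraries. No sequencing batch or date is given, and a batch that follows the group cannot be told apart from the group.

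Library totals lay between 7805544 and 9697777 counts, so that 1 count was worth 0.103 to 0.130 CPM. All 7 leukemia markers (Ptprc, Itgam, Kit, Mpo, Hoxa9, Meis1 and Cd34) were in the table, and Mpo, the myeloperoxidase gene, was the most abundant of them. Kit (0.65 on the log2 scale, adjusted p = 0.00140) and Meis1 (0.45, adjusted p = 0.0117) were higher in aggressive AML and Itgam (−0.61, adjusted p = 0.00122) was lower, and their part in the member results was not tested. The Y-linked genes Ddx3y, Eif2s3y, Kdm5d and Uty summed to between 2315 and 2574 counts in each new AML library. In each aggressive library they summed to 0, although the study derives the aggressive cells from the same leukemia. The reason was not tested, and a difference in sex or origin that follows the group cannot be told apart from the group. New AML replicate 3 had the highest level of every one of the 8 members, and results that rest on it are given with and without it.

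Interferons are secreted when cells sense viral nucleic acid. Type I interferon acts through the receptor chains Ifnar1 and Ifnar2 and the kinases Jak1 and Tyk2 on transcription factors, Stat2 and Irf9 among them, that bind interferon-stimulated response elements (ISRE) in front of target genes. Another element of interferon target genes is the gamma-activated sequence (GAS). The effectors described here are known for blocking viruses at different steps. IFIT proteins bind viral RNA and restrain its translation, IFITM proteins sit in cell and endosome membranes and hinder the fusion of viruses with them, and Bst2, or tetherin, holds budding viruses on the cell surface. Rsad2, or viperin, is a radical SAM enzyme that makes a chain-terminating nucleotide from CTP. Samhd1 hydrolyses the dNTPs that viruses need for DNA synthesis, and it is also known for cleaving the active form of the leukemia drug cytarabine.

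The promoters were examined for both motifs, since the members are textbook targets of this pathway. The windows, from RefSeq on GRCm38 (the build that mm10 names), reach from 250 bases before to 50 after each annotated start, and all 10 genes matched, with 11 windows because Ifit2 has 2. The ISRE core, GAAA followed after any 2 bases by GAAA and searched on both strands, was found in the windows of 7 of the 10 genes and of 5 of the 8 with counts, against 3.44% of 32851 windows of all genes. The GAS core TTCNNNGAA, which reads the same on both strands, was found in Samhd1, Ifitm3, Bst2 and Ifit2, against 8.30% of all windows. Ifit1, Ifit3, Ifit3b, Ifitm3 and Bst2 each held 2 ISRE core matches, which overlap in Bst2, and Ifitm2 and Rsad2 held 1. No ISRE core was found in the windows of Ifit2, Ifitm1 and Samhd1, which says only that these letters are not there. The sequences shown are the 150 bases upstream of the start of Ifit1, Ifitm2, Bst2 and Rsad2, which carry ISRE cores, and of Ifitm1, which had the largest fold change and carries none. For Ifitm3, whose matches begin 2 and 19 bases after the first base of the transcript, and for the GAS core of Samhd1, 30 bases around a match are shown. All read 5′ to 3′ on the strand of the gene, with ISRE core matches (in Ifitm3 the first alone), and in Samhd1 the GAS core, in capitals. The GAS core matches of Ifitm3 and Bst2 also lie in the stretches shown, where they overlap an ISRE core and are not marked. For Ifitm1 and Ifitm2 the start used lies inside the longer RefSeq span of the gene, so these bases are upstream of that start and not of every transcript.
Ifit1, chr19:34640739-34640888, plus strand: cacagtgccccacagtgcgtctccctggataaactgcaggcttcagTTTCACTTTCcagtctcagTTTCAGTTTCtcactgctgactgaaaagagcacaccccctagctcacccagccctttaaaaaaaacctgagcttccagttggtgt
Ifitm1, chr7:140967926-140968075, plus strand: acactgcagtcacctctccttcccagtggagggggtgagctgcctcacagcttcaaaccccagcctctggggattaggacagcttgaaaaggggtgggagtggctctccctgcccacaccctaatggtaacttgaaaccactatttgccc
Ifitm2, chr7:140955962-140956111, minus strand: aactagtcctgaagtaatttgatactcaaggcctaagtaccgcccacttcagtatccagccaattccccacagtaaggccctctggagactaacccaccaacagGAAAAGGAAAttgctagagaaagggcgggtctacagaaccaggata
Ifitm3, chr7:141010723-141010752, minus strand: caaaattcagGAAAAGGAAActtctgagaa
Bst2, chr8:71537473-71537622, minus strand: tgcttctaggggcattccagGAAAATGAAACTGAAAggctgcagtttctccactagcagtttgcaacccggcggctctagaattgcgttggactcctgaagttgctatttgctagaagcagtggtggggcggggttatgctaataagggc
Rsad2, chr12:26456453-26456602, minus strand: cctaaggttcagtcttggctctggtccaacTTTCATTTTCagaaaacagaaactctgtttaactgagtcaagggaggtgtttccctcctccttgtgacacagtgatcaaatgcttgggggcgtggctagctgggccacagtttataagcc
Samhd1, chr2:157135312-157135341, minus strand: acaccaccctTTCGGAGAAacacaagggcg

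**Figure D1:**
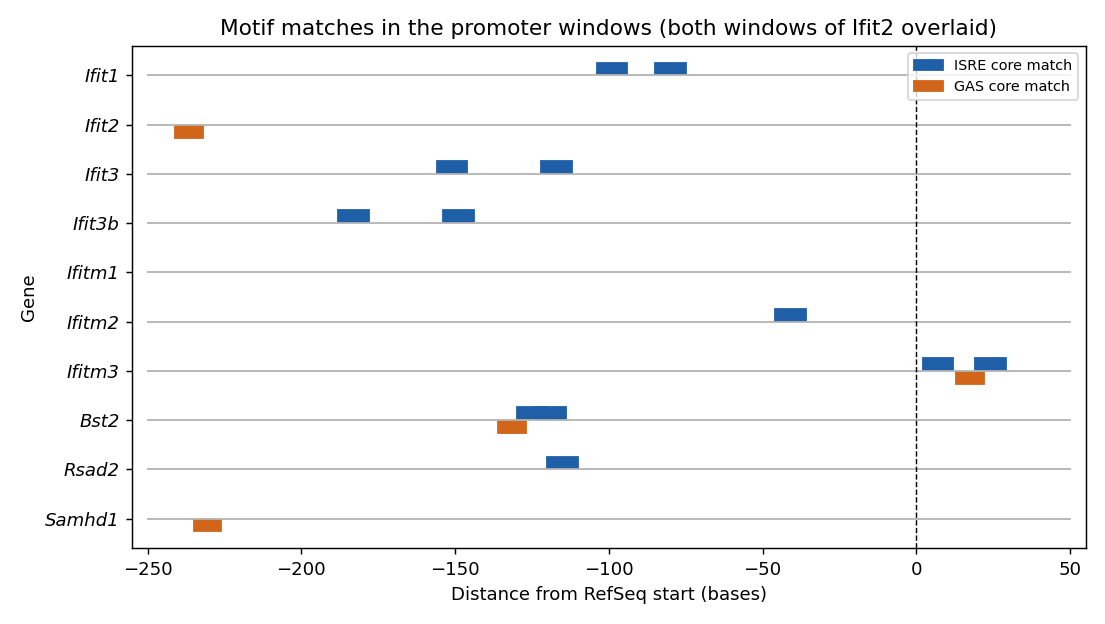
Matches of the ISRE core (blue) and GAS core (orange) in the promoter windows of the 10 genes, by distance in bases from the RefSeq start (dashed line). ISRE core matches lie before the start in 6 genes and after it in Ifitm3, and none is drawn for Ifit2, Ifitm1 and Samhd1.

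Of the 8 measured members, 6 passed the quasi-likelihood test of edgeR as lower in aggressive AML (p adjusted by Benjamini-Hochberg over all tested genes, threshold 0.05), 0 passed as higher and 2 did not pass. Across all tested genes, 18.4% were called, 10.2% lower and 8.15% higher. The 6 include Ifit1 and Ifitm1, which entered the test through the group in which they were high. The others were Ifitm2, Ifitm3, Bst2 and Samhd1. Bulk RNA cannot tell apart fewer cells of a type and less RNA per cell. All 8 log2 fold changes, aggressive over new AML, lay below 0, and 0 members were higher at an unadjusted p under 0.05. Their median was −0.71, against 0.00 for all tested genes. In 5 members, Ifit1 and Ifitm1 among them, every new AML library lay above every aggressive library, as it did in 12% of all tested genes. In order of size, the log2 fold changes were −2.81 for Ifitm1, −2.23 for Ifitm3, −1.62 for Ifit1, −0.74 for Samhd1, −0.67 for Ifitm2, −0.61 for Rsad2, −0.48 for Bst2 and −0.23 for Ifit2. Without new AML replicate 3, 4 of the 8 members (Ifitm1, Ifitm2, Ifitm3 and Samhd1) were called lower, beside 10.2% of all genes.

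**Figure D2:**
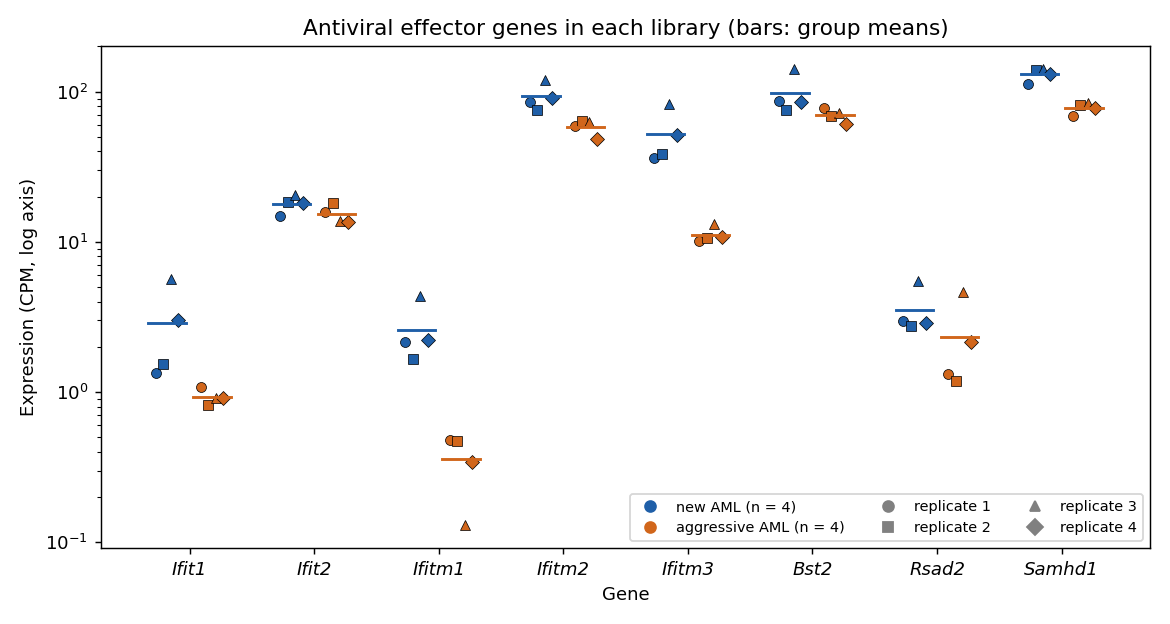
Expression (CPM, log axis) of the 8 measured members in each of the 8 libraries, new AML in blue and aggressive AML in orange, with symbols for the replicate and a bar at each group mean. The groups are apart in Ifit1, Ifitm1, Ifitm2, Ifitm3 and Samhd1 and overlap in Ifit2, Bst2 and Rsad2.

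The 3 IFITM genes lie together on chromosome 7 (GRCm38), at 140967429 to 140969827 for Ifitm1, 140954837 to 140959686 for Ifitm2 and 141009590 to 141010744 for Ifitm3. Ifitm3, which acts in late endosomes, had 351, 321, 741 and 465 counts in new AML replicates 1 to 4 and 84, 90, 101 and 94 in aggressive AML. The lowest new AML library, at 36.0 CPM, lay well above the highest aggressive one, at 13.1 CPM. Its mean level fell from 52.2 ± 21.5 CPM to 11.1 ± 1.33 CPM (SD, n = 4 libraries per group here and throughout). Its log2 fold change was −2.23 ± 0.23 (SE, adjusted p = 1.15e-05), and −1.92 without new AML replicate 3. Ifitm2 had 833, 633, 1071 and 819 counts in new AML and 488, 540, 484 and 424 in aggressive AML, and the groups did not overlap. It fell from 92.9 ± 18.9 to 58.3 ± 7.05 CPM, which is −0.67 ± 0.13 (SE) on the log2 scale (adjusted p = 0.00224) and −0.53 without new AML replicate 3. Counts of Ifitm2 are uncertain, because 40.9% of its exon bases are shared with Gm45717 on the same strand. Ifitm1, which is found mainly at the cell surface, had few reads, with 21, 14, 39 and 20 counts in new AML and 4, 4, 1 and 3 in aggressive AML. It fell from 2.60 ± 1.19 to 0.356 ± 0.164 CPM, a change of −2.81 ± 0.47 (SE) on the log2 scale (adjusted p = 0.000832) and −2.44 without new AML replicate 3. The summed counts, 94 against 12, gave a ratio of new over aggressive AML of 7.23, after division by the TMM-scaled library totals. Its 95% exact interval, 3.95 to 14.5, covers counting error only.

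The log2 ratio of 2 IFITM genes within a library, with 0.5 added to each count, shows whether they fell by different amounts and does not depend on library scaling. Ifitm3 over Ifitm2 was −1.25, −0.98, −0.53 and −0.82 in new AML and −2.53, −2.58, −2.26 and −2.17 in aggressive AML. The groups did not overlap, and the mean moved from −0.89 ± 0.30 to −2.38 ± 0.20 (SD, n = 4 each), a difference of −1.49. The exact two-sided permutation test gave p = 0.0286, the smallest that the 70 splits allow, and 0.0429 after adjustment over the 3 ratios. Ifitm3 thus fell by more than Ifitm2 in these libraries. Ifitm1 over Ifitm2 moved from −5.20 ± 0.30 to −7.23 ± 0.74, a difference of −2.03 with no overlap (exact permutation p = 0.0286, adjusted 0.0429). With 2 added to each count in place of 0.5 the difference was −1.54, and because Ifitm1 entered through the group in which it was high, its ratio is given as a description. Ifitm1 over Ifitm3 overlapped between the groups, with a range of −4.51 to −4.03 in new AML and −6.08 to −4.23 in aggressive AML, and its difference of −0.54 did not pass (exact permutation p = 0.229, adjusted 0.229).

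The neighbours of the IFITM genes were taken from the RefSeq annotation, as tested genes within 100 kb. Ifitm6, a relative of the IFITM family whose span begins 5068 bases from that of Ifitm3, lay between 5.54 and 8.20 CPM in new AML and between 0.907 and 2.62 CPM in aggressive AML. It was lower in aggressive AML, with a change of −1.97 ± 0.31 (SE) on the log2 scale (adjusted p = 0.000410). The other 8 tested neighbours (Athl1, Psmd13, Sirt3, Ric8a, Bet1l, B4galnt4, Pkp3 and Sigirr) did not pass the test, and their log2 fold changes lay between −0.19 for Athl1, which is 7173 bases from Ifitm2, and 0.15 for Sigirr. Of the other relatives listed by name, Ifitm5, Ifitm7, Ifitm10, Ifit1bl1 and Ifit1bl2 have no row in the table.

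The IFIT genes lie on chromosome 19, Ifit2 at 34550550 to 34576534 and Ifit1 at 34640889 to 34650009, with Ifit3 and Ifit3b between them. Ifit1, which binds viral RNA that lacks the methylation of host caps, had 13, 13, 51 and 27 counts in new AML and 9, 7, 7 and 8 in aggressive AML. The groups were apart by few reads at their edges, and new AML replicates 3 and 4 stood above the other new AML libraries. Its mean was 2.89 ± 2.01 CPM in new AML and 0.932 ± 0.109 CPM in aggressive AML, which is −1.62 ± 0.46 (SE) on the log2 scale (adjusted p = 0.0246). With new AML replicate 3 left out, the change was −1.06 (adjusted p = 0.0889), without new AML replicate 4 it was −1.60 (adjusted p = 0.0543), and without aggressive AML replicate 2 it was −1.56 (adjusted p = 0.0609). Of its 50-base stretches, 7.13% also occur in other genes, mostly in Ifit1bl2. Ifit2, an IFIT protein that binds AU-rich RNA, had 145, 156, 184 and 162 counts in new AML and 131, 154, 107 and 119 in aggressive AML. The groups overlapped, since new AML replicate 1 lay below aggressive AML replicates 1 and 2 in CPM. Its mean was 18.001 ± 2.337 CPM in new AML and 15.331 ± 2.118 CPM in aggressive AML, and the change of −0.23 ± 0.15 (SE) on the log2 scale (adjusted p = 0.294) did not pass the test. The only tested neighbour within 100 kb, the lysosomal lipase gene Lipa, had a log2 fold change of 0.05 (adjusted p = 0.709).

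Bst2 (chromosome 8, 71534255 to 71537472) had 850, 634, 1273 and 769 counts in new AML and 646, 583, 556 and 534 in aggressive AML. In CPM the groups overlapped, because new AML replicate 2 at 75.4 lay below aggressive AML replicate 1 at 77.8, and new AML replicate 3 at 142.0 stood above all others. The mean fell from 97.6 ± 30.1 to 69.8 ± 7.13 CPM, which is −0.48 ± 0.16 (SE) on the log2 scale (adjusted p = 0.0451) and close to the threshold. Of the 8 fits that left out 1 library, 1 called Bst2. With new AML replicate 3 left out the change was −0.25 (adjusted p = 0.0998), and in the other 6 fits without a call it lay between −0.54 and −0.42. Its 13 tested neighbours held 2 genes called lower, Ano8 (−0.41 on the log2 scale, adjusted p = 0.0201) and Fam129c (−0.60, adjusted p = 0.0123), and 1 called higher, Pgls (0.32, adjusted p = 0.0107). The other 10 (Mvb12a, Tmem221, Plvap, Slc27a1, Gtpbp3, Dda1, Mrpl34, Abhd8, Colgalt1 and Unc13a) did not pass.

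Rsad2 (chromosome 12, 26442743 to 26456452) had 29, 23, 49 and 26 counts in new AML and 11, 10, 36 and 19 in aggressive AML. Aggressive AML replicate 3, at 4.66 CPM, lay above 3 of the 4 new AML libraries, and the groups overlapped. Its mean was 3.52 ± 1.30 CPM in new AML and 2.33 ± 1.61 CPM in aggressive AML, and the change of −0.61 ± 0.41 (SE) on the log2 scale (adjusted p = 0.323) did not pass. Without aggressive AML replicate 3 it was −1.16 (adjusted p = 0.0406), and without new AML replicate 3 it was −0.31 (adjusted p = 0.646). Cmpk2, a nucleotide kinase that supplies the substrate of Rsad2 and lies 12665 bases from it, was lower in aggressive AML, at 27.9 ± 8.06 CPM in new AML and 18.6 ± 1.65 CPM in aggressive AML (−0.59 ± 0.17 on the log2 scale, adjusted p = 0.0247). The difference between the changes of Rsad2 and Cmpk2 was not tested. The other tested neighbour, Rnf144a, had a log2 fold change of −0.21 (adjusted p = 0.502).

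Samhd1 (chromosome 2, 157097534 to 157135096) was the most even member. It had 1097, 1167, 1261 and 1181 counts in new AML and 571, 689, 652 and 687 in aggressive AML, and the groups did not overlap. Its mean fell from 130.9 ± 12.8 to 78.1 ± 6.75 CPM, which is −0.74 ± 0.09 (SE) on the log2 scale (adjusted p = 6.16e-05), and in the 8 fits without 1 library it stayed between −0.81 and −0.69, each below the threshold. New AML replicate 3 lay only 1.10 times above the mean of the other new AML libraries. Of its 3 tested neighbours, Soga1 was lower (−1.24 on the log2 scale, adjusted p = 0.00281), and Rbl1 and Dsn1 did not pass.

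Of 12 genes that supply dNTPs, the pool that Samhd1 breaks down, 3 were higher in aggressive AML, 2 were lower and 7 did not pass, beside 8.15% and 10.2% of all tested genes, and their median log2 fold change was 0.06. Tk1, the thymidine kinase of dividing cells, was higher in aggressive AML (108.1 ± 6.84 to 135.0 ± 9.12 CPM, log2 fold change 0.32, adjusted p = 0.0111), as were the nucleotide kinases Nme1 (0.38, adjusted p = 0.0238) and Dtymk (0.22, adjusted p = 0.0440). Dguok, the mitochondrial deoxyguanosine kinase, fell by 0.66 on the log2 scale (adjusted p = 0.00473), and Dck, the deoxycytidine kinase that also activates cytarabine, fell by 0.27 (adjusted p = 0.0466). Among those that did not pass were the ribonucleotide reductase subunits Rrm1 (0.08, adjusted p = 0.454) and Rrm2 (0.04, adjusted p = 0.810).

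**Figure D3:**
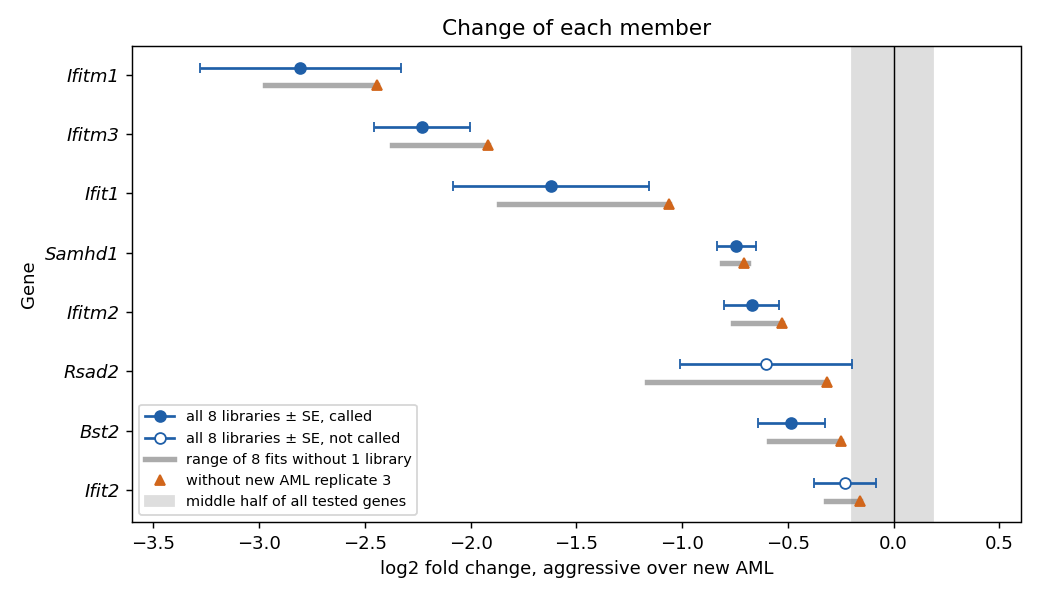
Log2 fold change, aggressive over new AML, of each member with its standard error (circles, filled where the adjusted p was under 0.05), the range over 8 fits that each left out 1 library (grey bars) and the value without new AML replicate 3 (triangles). The shaded band spans the lower to the upper quartile of all tested genes, −0.20 to 0.19, and without new AML replicate 3 only Ifit2, at −0.16, lies in it.

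The members also differed in level. Because reads rise with transcript length, levels of different genes are compared only as CPM per kb of exon sequence. On that scale the order in new AML was Ifitm2 (141.8 ± 28.9), Bst2 (108.1 ± 33.3), Ifitm3 (76.9 ± 31.7), Samhd1 (14.3 ± 1.40), Ifit2 (4.58 ± 0.595), Ifitm1 (2.38 ± 1.09), Ifit1 (1.09 ± 0.755) and Rsad2 (0.812 ± 0.300). The ranges of Ifitm2, Bst2 and Ifitm3 overlapped between libraries, as did those of Ifit2 and Ifitm1, of Ifitm1 and Ifit1 and of Ifit1 and Rsad2. Within every new AML library, though, Ifitm2 lay above Bst2 and Bst2 above Ifitm3. Likewise Ifit2 lay above Ifitm1 and Ifitm1 above Ifit1 in each, whereas the order of Ifit1 and Rsad2 differed between libraries. In aggressive AML the order was Ifitm2 (89.1 ± 10.8), Bst2 (77.3 ± 7.89), Ifitm3 (16.4 ± 1.96), Samhd1 (8.54 ± 0.738), Ifit2 (3.90 ± 0.539), Rsad2 (0.538 ± 0.372), Ifit1 (0.351 ± 0.0411) and Ifitm1 (0.325 ± 0.150). There Ifitm3 lay between 14.9 and 19.3, apart from Bst2, which lay between 67.3 and 86.2. The ranges of Bst2 and Ifitm2 overlapped, although Ifitm2 lay above Bst2 within every aggressive library. Those of Rsad2, Ifit1 and Ifitm1 overlapped as well, and their order differed between libraries. Summed over the 8 members, the length-scaled level was 349.9 ± 95.8 CPM per kb in new AML and 196.5 ± 17.9 in aggressive AML. Ifitm3 made up 21.5% ± 3.12 of that sum in new AML and 8.39% ± 1.02 in aggressive AML, while Bst2 made up 30.7% ± 1.81 and 39.4% ± 2.18, and neither share overlapped between groups. These shares add up to a fixed total, so a lower share of one gene raises those of the others. The exon length joins the exons of all annotated transcripts. For Samhd1, with 10 transcripts, it is 9150 bases, so its level and its place in the order depend on that choice. The level of Ifitm2 rests on the uncertain counts described above.

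**Figure D4:**
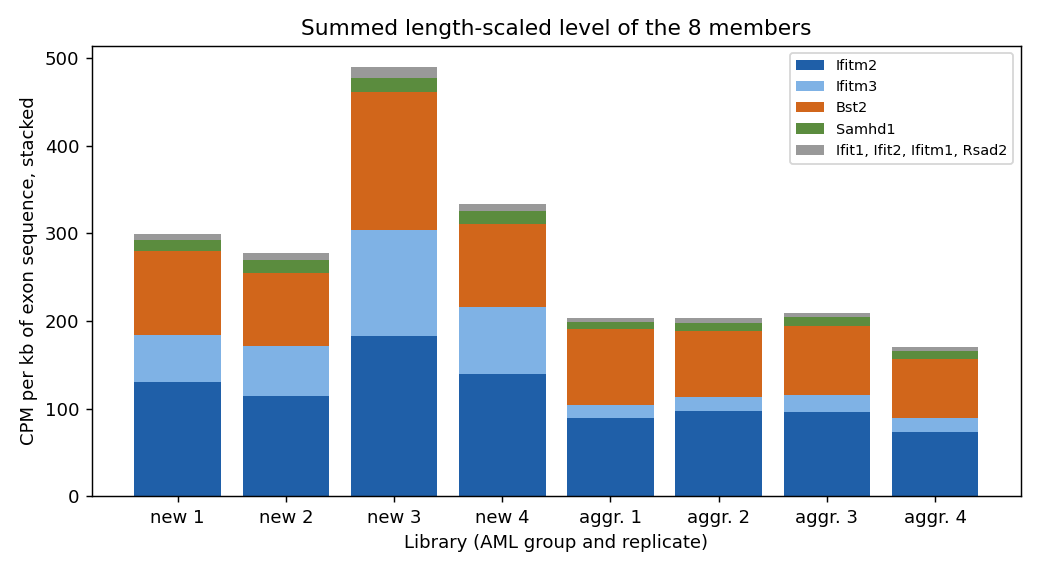
Summed level of the 8 members in each library (CPM per kb of exon sequence, bars stacked by gene from 0). New AML replicate 3 is the tallest bar at 489.4, all 4 aggressive libraries lie between 169.9 and 209.1, and the light blue Ifitm3 segment is much thinner in them.

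The spread between libraries was not alike in the groups. The SD of log2(CPM + 1) among new AML libraries had a median of 0.39 over the members and 0.15 over all tested genes, and among aggressive libraries 0.17 for both. It was larger in new AML for 7 of the 8 members, all but Rsad2 and by almost nothing in Ifit2, against 42.8% of all tested genes. Ifit1 had the widest spread in new AML (0.70, against 0.08 in aggressive AML), followed by Ifitm3 (0.54 against 0.15), and Samhd1 had the narrowest (0.15 against 0.13). All 8 members were highest in new AML replicate 3, among new AML libraries and among all 8, whereas 28.2% of all tested genes were highest there among new AML libraries. The ratio of that replicate to the mean of the other new AML libraries had a median of 1.81 over the members, from 1.10 for Samhd1 to 2.90 for Ifit1, and of 0.992 over all genes. Averaged over the members, the log2(CPM + 1) values centred per gene were 0.18, 0.19, 0.94 and 0.41 in new AML and −0.46, −0.44, −0.31 and −0.51 in aggressive AML. New AML replicates 1 and 2 thus lay closest to the aggressive libraries, and all 4 new AML means stayed above all 4 aggressive means.

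**Figure D5:**
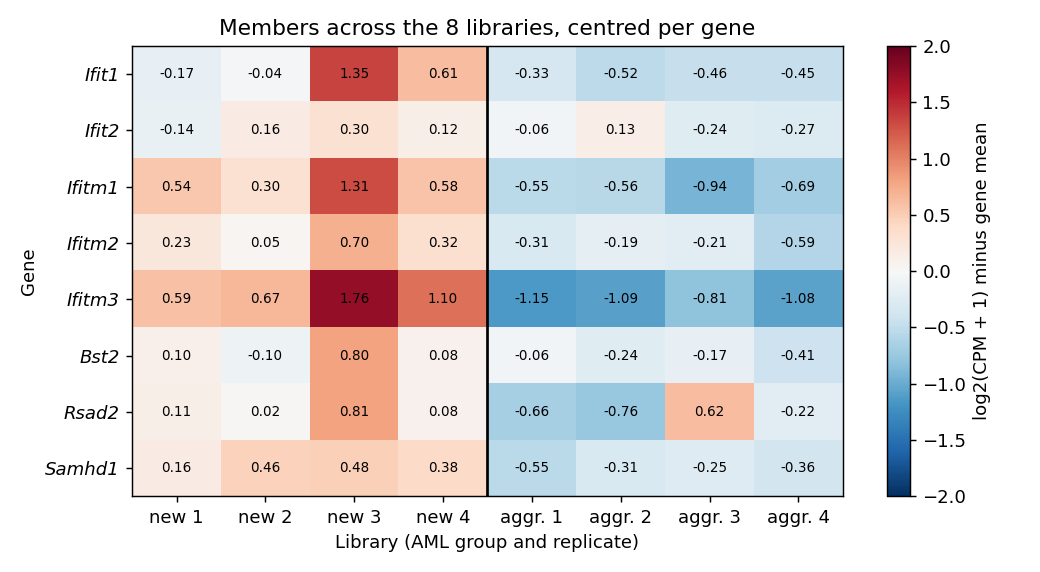
Log2(CPM + 1) minus the mean of each gene over the 8 libraries (colour and printed value), with new AML libraries left and aggressive libraries right of the line. The column of new AML replicate 3 is the warmest, up to 1.76 for Ifitm3, and Rsad2 in aggressive AML replicate 3 (0.62) is the highest value among the aggressive libraries.

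The same direction was found in most of the other genes of the pathway. From a list of 63 genes that leaves out the members, 50 were tested, and 40 were lower in aggressive AML, 1 was higher and 9 did not pass, with a median log2 fold change of −0.59. These counts stand beside the 10.2% and 8.15% of all tested genes given above. This list was written with earlier results of these data known, and the study names interferon response genes as a theme of the same samples, so its direction is not independent evidence. Without new AML replicate 3, 36 were lower, and without new AML replicate 1, 0 were called higher. None of the 8 ligand genes listed (Ifnb1, Ifng, Ifna1, Ifna2, Ifna4, Ifne, Ifnl2 and Ifnl3) has a row in the table. Among 5 receptor chains, 4 were lower, with Ifngr2 at −0.65, Ifnar2 at −0.43, Il10rb at −0.40 and Ifnar1 at −0.38 on the log2 scale, while Ifngr1 was higher (373.7 ± 29.8 to 485.6 ± 85.1 CPM, 0.38, adjusted p = 0.0204). Of 9 kinases and transcription factors 7 were lower, led by Irf7 (−1.85, adjusted p = 7.08e-05), which amplifies interferon production. Irf9 and Stat2, which act at the ISRE, were lower at −1.04 (adjusted p = 4.53e-06) and −0.52 (adjusted p = 0.00421). Usp18, a brake on the receptor, was lower as well (−2.32, adjusted p = 0.000208). Of 10 sensors and adaptors 8 were lower, with Zbp1 at −2.27, Ddx58, which encodes RIG-I, at −1.07 and Tlr9 at −1.06. Of 24 other effectors 20 were lower, with Oas2 at −2.52, Lgals3bp at −1.84 and Oas3 at −1.83, the OAS enzymes being known to switch on RNA decay.

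Genes whose profile over the 8 libraries was most like the mean profile of the members were sought among 9260 genes with at least 10 CPM in new AML, by the root mean square difference of centred log2(CPM + 1) values. The closest were Xaf1 (0.111), Trim34a (0.162), Atp10a (0.165), Ddx58 (0.166) and Ifih1 (0.171), against a median of 0.5004 over the candidates. Xaf1 and the RNA sensors Ddx58 and Ifih1 are on the pathway list. The members themselves lay between 0.152 for Ifitm2 and 0.614 for Ifitm3 from their own mean.

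Markers of other cells that the sorted fraction could hold were examined beside these changes. Their counts of lower genes stand beside the 10.2% of all tested genes called lower. Of 8 neutrophil genes 7 were lower in aggressive AML, and their sum was 292.2 to 440.5 CPM in new AML and 144.5 to 192.1 CPM in aggressive AML, with S100a8 the most abundant. Of 7 macrophage genes 3 were in the table, and Adgre1 was lower among the 2 tested. Their sums were 63.1 to 108.9 and 37.5 to 56.9 CPM, while C1qa, C1qb, Cd5l and Marco have no row. Of 7 plasmacytoid dendritic cell genes, which mark a cell type known for high interferon output, 3 were in the table and tested. Their sums were 8.80 to 14.4 and 2.65 to 9.07 CPM. Siglech was lower (5.58 ± 2.17 to 0.448 ± 0.408 CPM, adjusted p = 0.000184), and the other 2 did not pass. In aggressive AML Siglech lay between 0 and 0.910 CPM, so it entered the test through the group in which it was high. All 8 erythroid genes were in the table, with sums of 27.3 to 101.2 and 10.01 to 53.6 CPM, and 2 of the 7 tested were lower, with Hbb-bs the most abundant. In these 4 lists the highest new AML library was replicate 4. It was replicate 3 for the members and for the B cell and NK cell lists given next. No T cell marker (0 of 6) was in the table, and 3 of 5 B cell genes, 1 of 6 NK cell genes and 1 of 8 endothelial and stromal genes were. The tested genes of these lists, Cd79b, Klrk1 and Pecam1, did not pass the test. The part of these cells in the lower member levels was not tested.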

How the data were processed

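Polyadenylated RNA of sorted GFP+ cells was sequenced from both ends in 4 new AML and 4 aggressive AML libraries. The authors aligned reads to mm10 with HISAT2, obtained gene counts with Rsubread and removed genes of low CPM. The annotation and strand setting are not given in the sources used here. Although its name speaks of CPM, the deposited table holds whole-number counts whose totals differ between libraries, and these were used as raw counts. Groups and replicate numbers came from the sample labels.

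A gene was kept when 4 or more of the 8 libraries reached 1 CPM (12494 genes, with 329 rows left out), library sizes were scaled by TMM (also in all CPM values given), and group was the only term in the quasi-likelihood fit of edgeR 4.0.16 (R 4.3.3), where p-values were adjusted by Benjamini-Hochberg and called under 0.05. DESeq2 1.42.0 and limma 3.58.1 were alternatives. The edgeR script was tested on simulated data. Gene positions are those of RefSeq on GRCm38, exon lengths and overlaps those of GENCODE, and promoter sequences those of RefSeq on GRCm38.p6. Totals of 7805544 to 9697777 counts make 3 counts worth 0.308 to 0.389 CPM. The common biological coefficient of variation was 0.118, and replicates differed by more than sampling noise in every pair of a group (chi-square per degree of freedom 4.01 to 10.8).

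The members and lists were chosen with earlier results of these data known. Named genes are all members, of the pathway list in each role the 3 called genes with the largest change at 10 CPM or more plus Stat2, Irf9, Irf7, Ifnar1, Ifnar2 and Cmpk2, all measured relatives and neighbours, Rrm1, Rrm2, Dck and any called dNTP gene, the 5 genes most like the members, and the most abundant gene of each marker list. Ifngr1, Gm45717, Kit, Meis1, Itgam and the Y-linked genes were named after their values were seen. Some genes that the rule selects are not reported here.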

Additional observations from a re-analysis of the deposited data

Results flagged for a closer look

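Rsad2 had 5.46 CPM in new AML replicate 3, while the nearest of the other new AML libraries had 2.98 CPM. This gap is 0.911 of the range of the group, above Dixon's 95% critical value for 4 samples. Of the 16 groups of 4 libraries tested (8 members in both groups), 1 passed, and chance passes about 1 in 20. The edgeR log2 fold change of Rsad2 was −0.61 with this library and −0.31 without it, and passed the threshold in neither fit.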

How the results depend on the processing

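The directions of all 8 member fold changes held in the 15 alternatives (other scalings, no filter, DESeq2, limma, voom with array weights, a replicate block and 8 fits without 1 library), and Ifitm1, Ifitm2, Ifitm3 and Samhd1 were called in each. Ifit1 lost its call in 4 of them and Bst2 in 9, and Rsad2 gained one without aggressive AML replicate 3. Members called lower numbered 4 to 6. The fits without 1 library gave 1534 to 2381 called genes against 2296, a median member log2 fold change from −0.97 (without aggressive AML replicate 3) to −0.62, and 0 (without new AML replicate 1) to 1 pathway genes called higher. Array weights raised the called genes to 3122.

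The labels number the replicates alike in both groups, but the deviations of same-numbered libraries correlated at 0.0967, −0.0399, −0.0654 and 0.204, so the numbers were not taken as pairs. A replicate block gave 2367 called genes and 6 members lower. With the block, the IFITM ratios kept differences of −1.49 (Ifitm3 over Ifitm2) and −2.03 (Ifitm1 over Ifitm2), with an adjusted exact p of 0.188 each, since 4 pairs cannot reach the threshold. The planned ratios with Ifit3 or Ifit3b and the sum of both could not be computed, as neither has a row. Depth limits Ifitm1, Ifit1 and Rsad2, at 1 to 51 counts per library.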
